A study of Mus musculus with 3 samples.

Results

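This account follows 10 genes of the activator protein 1 (AP-1) and immediate early group in doxycycline-treated melan-a NRAS61K cells: Fos, Fosb, Fosl1, Fosl2, Jun, Junb, Jund, Atf3, Egr1 and Ier3. They were chosen by name, as all probe sets whose only gene symbol in the array annotation is one of the 10. That rule found 14 probe sets, among 34958 probe sets of 18194 genes that could be named alone. Melan-a is an immortalized line of mouse melanocytes, here carrying the NRAS61K oncogene. Total RNA was measured on Affymetrix arrays, which detect biotin-labelled cRNA, at 6, 14 and 28 days of exposure to 1 µg/ml doxycycline. The labels give 1 array for each day, and all arrays share the line, the oncogene and the drug at that dose. No untreated array was used here, so the day 6 array is the earliest point and not a baseline. The labels do not name the promoter that drives the oncogene or say whether the line is 1 clone. A level below is the deposited log2 value of a probe set, and a difference is the later day minus the earlier. The first step is day 14 minus day 6, the second step day 28 minus day 14, and the whole interval day 28 minus day 6.

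AP-1 is a dimer of basic leucine zipper proteins. FOS proteins pair with JUN proteins, and JUN proteins also pair among themselves or with ATF proteins. The dimers bind short DNA elements in promoters and enhancers. Their genes are among the immediate early genes, which growth factor and stress signals switch on without new protein synthesis and whose transcripts are mostly short-lived. RAS signalling through ERK induces Fos and Egr1 through serum response elements and stabilizes FOS family proteins such as FRA-1, the product of Fosl1, while JNK phosphorylates JUN. In pigment cells and melanoma, FRA-1 and JUN are known for their link to low-pigment, invasive states.

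Promoter sequence was available for 8 of the 10 genes in the RefSeq-derived table, build GRCm38.p6; Fosl1 and Egr1 are named only. Fos and Jun are shown because they were the members with higher levels at day 14 than at day 6 beyond the spread between probe sets. Each run is the 250 bases before the annotated start, 5′ to 3′ on the gene's strand. Fos lies at chr12:85473640-85473889 on the plus strand and Jun at chr4:95052223-95052472 on the minus strand. Capitals mark the half-site TGACGT and the TATA box TATAAA in Fos, and the octamer TGACATCA in Jun, a variant of the AP-1 element known from this promoter.
Fos: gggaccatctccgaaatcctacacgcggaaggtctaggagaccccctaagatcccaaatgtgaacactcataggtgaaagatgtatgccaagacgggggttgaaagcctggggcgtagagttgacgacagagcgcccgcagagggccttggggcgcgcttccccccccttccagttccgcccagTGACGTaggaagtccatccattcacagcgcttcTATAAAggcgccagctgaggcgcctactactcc
Jun: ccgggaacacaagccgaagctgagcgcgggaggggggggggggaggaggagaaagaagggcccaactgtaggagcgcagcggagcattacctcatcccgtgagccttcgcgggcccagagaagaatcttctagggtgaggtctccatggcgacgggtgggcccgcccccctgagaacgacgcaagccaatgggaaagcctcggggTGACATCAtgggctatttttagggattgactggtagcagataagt

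In Fos the half-site began at position -66 and the TATA box at -33 relative to the start. In Jun the octamer began at -45. The motifs were searched on both strands, apart from TATAAA on the gene's strand alone. TGACATCA was present in 2.93% of 32851 promoters of this length, TGACGT in 6.47% and TATAAA in 7.59%. The canonical AP-1 element TGACTCA (4.46% of promoters), the cyclic AMP element TGACGTCA (1.55%), which contains the half-site, and the CArG box of serum response elements (1.47%) were in none of the 8 members' windows. Atf3, an ATF family gene, held the half-site on the opposite strand at -8. The EGR motif GCGNGGGCG, in 4.70% of promoters, was in Fosb at -50 and Fosl2 at -79. These matches describe letters in a short window, so an element further upstream would not be seen. Egr1 had no sequence to search.

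The arrays share 1 set of values in different order, the mark of quantile normalization, and each difference is relative to the other genes. The log base of 2 is inferred from the values and not stated in the labels, and every fold assumes it. With 1 array per day there is no spread between cultures, no p-value and no SD for a level. The only error at hand is the SD of differences between probe sets of one gene, which was 0.34 in the first step, 0.28 in the second and 0.37 over the whole interval. Genes silent in pigment cells (66 genes, 103 probe sets) set a background for each array at their 90th percentile, 22.85, 22.64 and 22.86 in order of time. Of the 15 melanocyte markers, 11, 11 and 10 lay above it on the 3 arrays, while Tyr, Kit and Rab27a did so on no array. Fibroblast markers did so for 7, 5 and 6 of 12, macrophage markers for 6, 5 and 5 of 12, keratinocyte markers for 3, 4 and 3 of 11, and endothelial markers for 1 of 8 each time. The leukocyte gene Ptprc lay below it on every array. The level of Nras on its brightest probe set was 26.92, 26.48 and 26.70. Its other probe sets fell further, by differences of -1.12 to -0.785 in the first step and -0.83 to -0.475 over the whole interval. Whether the Nras probe sets detect the introduced gene is unknown.

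Fosl1 was the member with the widest swing. It was high at day 6, lowest at day 14 and in between at day 28. Its main probe set read 26.27 at day 6, 24.39 at day 14 and 25.62 at day 28. The second probe set read 24.30, 22.30 and 23.42, with the day 14 value below the background of that array. Both placed the 3 arrays in the same order.

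The main probe set of Fosl1 was 3.67-fold lower at day 14 than at day 6, a difference of -1.88 on the log2 scale. The second was at least 3.16-fold lower, since only a bound is available on the dim array. Of 11694 genes above the background on at least 1 of both arrays, 0.248% were as low or lower. The fall was 5.45 times the SD between probe sets. From day 14 to day 28 the main probe set was 2.34-fold higher (1.23 on the log2 scale) and the second at least 1.72-fold higher, with 1.29% of 11666 genes as high or higher. Day 28 remained below day 6 on both probe sets, by differences of -0.65 and -0.88, and neither reached 2-fold.

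Fos, whose product is the founding partner of JUN in AP-1, went the other way. Its single probe set read 25.54 at day 6, 26.87 at day 14 and 26.24 at day 28, so day 14 was the highest array. The first step was 2.52-fold upward (1.33 on the log2 scale), and 3.10% of genes were as high or higher. The later difference was -0.64, which is 2.30 times the SD between probe sets and under 2-fold. Day 28 stayed 0.70 above day 6.

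**Figure D1:**
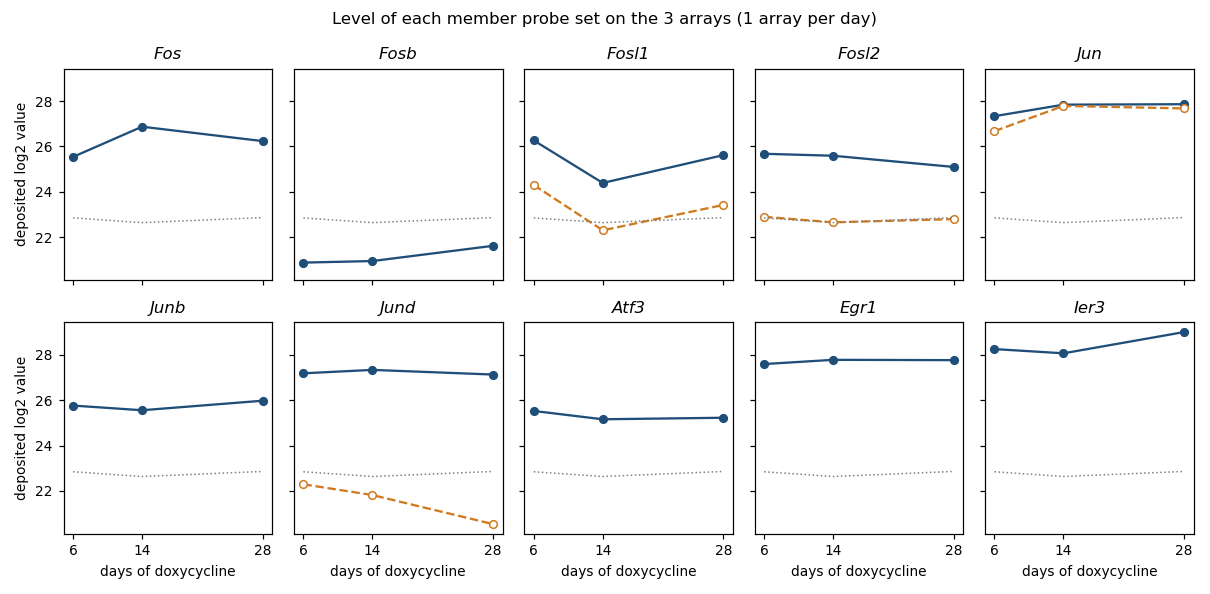
Deposited log2 value (vertical axis) of the 14 member probe sets against days of doxycycline (horizontal axis), with 1 array per day and no error bars. Blue filled points are the main probe set of a gene, orange open points a second one, and the grey dotted line is the background of each array. Both Fosl1 probe sets dip at day 14, where Fos peaks at 26.87, while Fosb and 1 Jund probe set lie under the background throughout.

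The remaining FOS family genes differed less. Fosl2, which encodes FRA-2, read 25.68, 25.59 and 25.09 on its main probe set in order of time. Its lowest array was day 28, with differences of -0.09 for the first step and -0.49 for the second. Its second probe set lay within 0.07 of the background on each array (22.89, 22.65 and 22.79) and gave 0.14 for the second step, so the 2 probe sets differ in sign there. Fosb lay below the background on all arrays (20.87, 20.94 and 21.61), and no difference is read from it.

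Among the JUN genes, Jun was higher at both later days. Its main probe set read 27.34, 27.84 and 27.86, and the second 26.68, 27.79 and 27.68. On both probe sets day 6 was the lowest array and days 14 and 28 were close together. The size depended on the probe set. In the first step the main one gave 0.51 (1.42-fold) and the second 1.11 (2.16-fold), and over the whole interval they gave 0.53 and 1.00. For the main one, 16.1% of genes were as high or higher in the first step and 18% over the whole interval. For the second the shares were 4.42% and 6.59%. The second step was 0.02 and -0.11, inside the SD between probe sets of 0.28.

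Junb, which can act as an antagonist of JUN, read 25.77, 25.56 and 25.98. Its second step of 0.42 was 1.52 times the SD between probe sets, and the other differences lay within that SD. Jund, a JUN protein that is often present in resting cells, read 27.19, 27.34 and 27.14 on its main probe set, with all differences within the SD. Its second probe set lay below the background on each array (22.29, 21.82 and 20.54), so its fall is not read.

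Atf3, a stress-induced partner and repressor, read 25.53 at day 6, 25.16 at day 14 and 25.23 at day 28. The first step of -0.37 was 1.07 times the SD between probe sets, and the second was 0.07. Egr1, a zinc finger factor induced by ERK, read 27.60, 27.79 and 27.77, and its differences of 0.19, -0.01 and 0.17 all lay within the SD. In the first step Egr1 thus differed by 0.19 where Fos differed by 1.33.

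Ier3, an early response gene whose product affects survival and ERK signalling, read 28.26, 28.07 and 29.01. Day 28 was the highest array. It was 1.92-fold higher than day 14 (0.94 on the log2 scale, 3.40 times the SD), with 2.54% of genes as high or higher, and 1.68-fold higher than day 6. With the arrays shifted to equal medians of 12 reference genes, Ier3 passed 2-fold narrowly in both comparisons, at 1.003 and 1.010 on the log2 scale. That shift also moved the median of all genes upward, by 0.065 and 0.26.

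**Figure D2:**
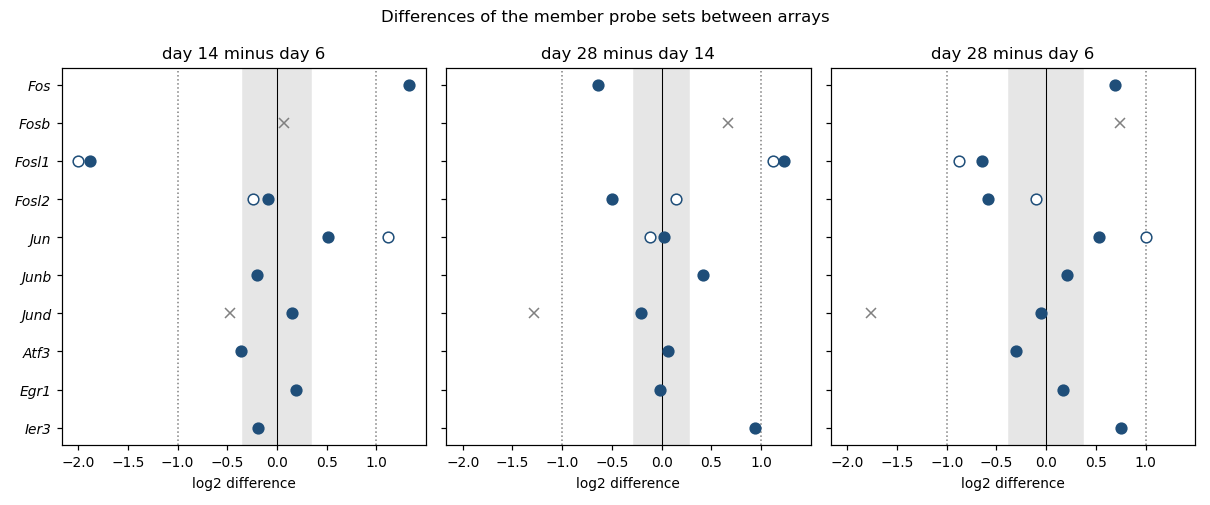
Log2 difference (horizontal axis) of each member's probe sets in the 3 comparisons, with genes on the vertical axis. Filled points are main probe sets, open points second ones, crosses probe sets under the background on all arrays, the grey band 1 SD between probe sets of a gene, and the dotted lines 2-fold. Fosl1 at -1.88 and Fos at 1.33 stand on opposite sides in the first panel.

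Counted by main probe set, 9 of the 10 members lay above the background and Fosb did not. In the first step, 1 of 9 was at least 2-fold higher (Fos) and 1 at least 2-fold lower (Fosl1). Over all genes 5.5% were called higher and 3.87% lower. The median difference of the members was -0.09, beside -0.03 for all genes, and 5 of 9 lay within 1 SD, beside 49.3% of genes.

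In the second step, 1 of 9 was higher (Fosl1) and 0 lower, where 2.18% of all genes were higher and 1.46% lower. The median was 0.02 beside 0.03. Over the whole interval, 0 of 9 were 2-fold apart in either direction, where 6.61% of genes were higher and 4.01% lower. The median was 0.17 beside 0.01. A count of 0 or 1 among 9 does not set the group apart from the array. At 1.5-fold, 1 member was higher and 1 lower in the first step, where 13.5% of genes were higher and 14.2% lower. At that size 2 were higher (7.5% of genes) and 1 lower (4.41%) in the second step, and 2 higher (15.8%) and 1 lower (12.2%) over the whole interval. The comparisons share arrays: day 14 enters both steps with opposite signs, so its own error would turn up as a dip or a peak.

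The change within the group can be expressed free of any shift of a whole array, since a common shift cancels in the difference between 2 genes. In the first step the difference of Fos exceeded that of Fosl1 by 3.21 on the log2 scale, a 9.25-fold shift of one against the other. In the second step the same contrast was -1.87, a 3.64-fold return, and over the whole interval it was 1.34. Jun against Fosl1 gave 2.39, -1.21 and 1.18 for the first step, the second step and the whole interval. Fosl1 against Fosl2, both of the FRA type, gave -1.79, 1.72 and -0.07. Jun against Jund stayed between 0.23 and 0.58. Ier3 against Egr1 gave -0.37, 0.95 and 0.58. Fos and Fosl1 had the highest and lowest first step of the 9 detected members, so no pair lies further apart there. The members thus changed unequally, mostly through Fosl1 and Fos in the first step and through Fosl1 and Ier3 in the second. Over the whole interval Ier3 had the largest difference, 0.75.

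**Figure D3:**
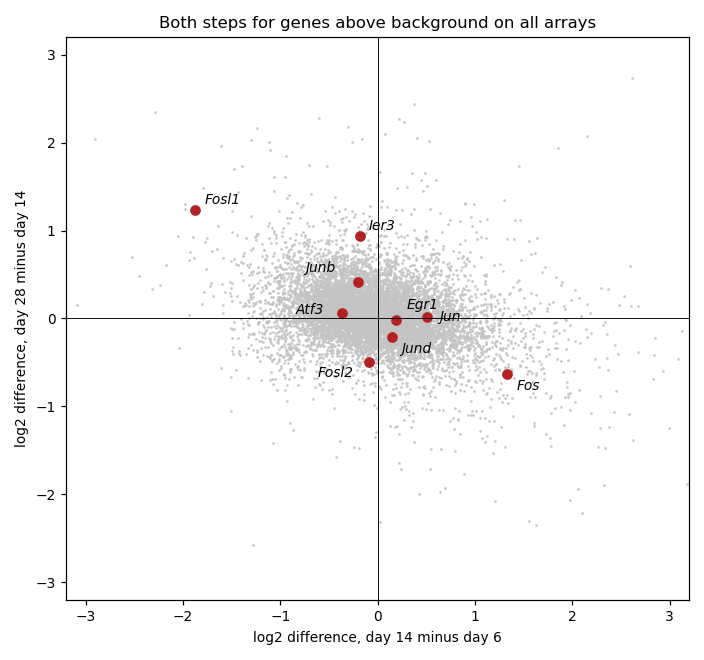
Log2 difference of day 14 minus day 6 (horizontal axis) against day 28 minus day 14 (vertical axis) for 10609 genes above the background on all arrays, in grey, with the 9 detected members in red. Fosl1 sits at -1.88 and 1.23 and Fos at 1.33 and -0.64, Ier3 lies high in the second step at 0.94, and the other members lie nearer the centre; 13 genes fall outside the plotted range of 3.2, and both axes contain the day 14 array.

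The genes most like Fosl1 over both steps, by Euclidean distance among 10609 genes above the background on all arrays, were Chac1 (distance 0.04), Sp110 (0.10) and Hmox1 (0.13). Chac1 degrades glutathione and Hmox1 degrades heme. Chac1 read 25.95, 24.11 and 25.33, and Hmox1 24.99, 23.01 and 24.32. Among the genes searched the pattern was sparse, with 5 others within a distance of 0.3 of Fosl1. Genes that fell below the background at day 14 were left out of the search. Sp110 read 22.71 on that array, close to the background of 22.64. The nearest to Fos were Sash1 (0.02), Lgr4 (0.04) and Rtn1 (0.06), and 63 genes lay within 0.3. The likeness covers 3 arrays and carries no test.

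Of 39 other immediate early genes on the array, 35 lay above the background in the first step, and 2 were 2-fold higher and 1 lower, where 5.5% of all genes were higher and 3.87% lower. Ccn2, a matricellular protein gene, read 26.54, 28.32 and 26.87, so it was 3.43-fold higher in the first step and 2.74-fold lower in the second. Dusp1, which encodes a MAP kinase phosphatase, read 27.01, 28.21 and 26.81, so it was 2.30-fold higher and then 2.63-fold lower. Both had their highest array at day 14, where Fos did. Plk3, a stress-responsive kinase gene, was 2.34-fold lower in the first step.

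Of 34 detected in the second step, 2 were higher and 3 lower, where 2.18% of all genes were higher and 1.46% lower. Klf10, a TGF-beta-induced zinc finger gene, was 2.42-fold higher and Ier5l 2.07-fold higher. Ccn1, the relative of Ccn2, was 2.55-fold lower, and its other probe sets gave -1.67 to -1.46. Over the whole interval, Klf10 was 2.29-fold higher, while Ccn1 was 2.60-fold lower and Sgk1, a serum-induced kinase gene, 2.52-fold lower. The list medians were -0.09, 0.09 and -0.12 in the first step, the second step and the whole interval. Egr4, Nr4a3, Arc and Ptgs2 lay below the background on all arrays. Egr3, a relative of Egr1, lay near it, and its probe sets differed in sign in the first step, at -0.53 and 1.09.

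Of the genes that act on or beside AP-1, at most 1 per list was 2-fold apart in any comparison. Of all genes, 5.5% were higher and 3.87% lower in the first step, and 2.18% and 1.46% in the second. Over the whole interval the shares were 6.61% and 4.01%. Counts of 0 or 1 among 6 to 15 genes do not set a list apart from the array. Of 11 detected bZIP partners, 1 was 2-fold apart: Maf, a large Maf factor gene, was 2.12-fold higher at day 14, with other probe sets from 0.52 to 1.16. The partners had medians of 0.03, -0.17 and -0.31 in the first step, the second step and the whole interval. The 15 detected upstream kinases and SRF cofactors, among them Map2k1, Mapk8, Elk1 and Srf, had 0 members 2-fold apart in any comparison. Their medians were 0.01, 0.13 and 0.02, beside -0.03, 0.03 and 0.01 for all genes. Of 6 genes for AP-1 turnover, Itch, a ubiquitin ligase gene whose product acts on JUN and JUNB, was 2.46-fold higher over the whole interval (26.53, 27.15 and 27.83), and its other probe sets gave 0.72 to 1.23. Fbxw7 and Cop1, which encode other JUN ligase components, differed by 0.17 and -0.04 over the same interval.

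Genes known as AP-1 targets showed lower levels at day 14 for several members and higher levels at day 28. In the first step, 5 of 27 were 2-fold lower and 2 higher, with a median of -0.25 beside -0.03 for all genes, of which 3.87% were lower and 5.5% higher. In the second step, 6 of 28 were higher and 0 lower, with a median of 0.34 beside 0.03, where 2.18% of all genes were higher and 1.46% lower. Both steps contain the day 14 array, with opposite signs. The list was drawn up with earlier results of these data known, and no set test was made. Over the whole interval, 4 of 28 were higher and 1 lower, with a median of 0.03, where 6.61% of all genes were higher and 4.01% lower.

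Timp1, an inhibitor of matrix proteases, read 26.10, 24.80 and 26.83, so it was 2.47-fold lower and then 4.10-fold higher. Il11, a cytokine gene, read 25.56, 23.95 and 25.91, so it was 3.05-fold lower and then 3.88-fold higher. Hmox1 was 3.94-fold lower and then 2.47-fold higher. All 3 had their lowest array at day 14, as Fosl1 did. Of the other 2 genes lower at day 14, named after their values were seen, Csf1 was lower by 1.20 and Plaur by 1.03 on the log2 scale.

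Mmp13, Mmp3 and Itgb3 had their lowest array at day 6. The collagenase gene Mmp13 lay below the background at day 6, at 22.80, and read 23.11 at day 14 and 24.85 at day 28, so it was 3.35-fold higher in the second step and at least 4.01-fold higher over the whole interval. The stromelysin gene Mmp3 read 25.62, 27.08 and 28.20, with day 28 5.97-fold above day 6. Itgb3, an integrin chain gene, was 3.79-fold higher at day 14 and 3.77-fold higher at day 28 than at day 6. Vegfa, an angiogenic factor gene, had its lowest array at day 14 (25.84, 25.44 and 26.45). It was 2.01-fold higher in the second step on its main probe set, and another gave 0.59. Ccnd1, Cd44, Vim and Axl, which are often cited as targets, differed by at most 0.33 in any comparison on their main probe sets. Other probe sets of Cd44 gave -1.01 to -0.36 in the first step and -0.89 to -0.26 over the whole interval. Those of Ccnd1 gave -0.51 to -0.31 and -0.57 to -0.04. Those of Vim and Axl differed by at most 0.355 in any comparison.

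**Figure D4:**
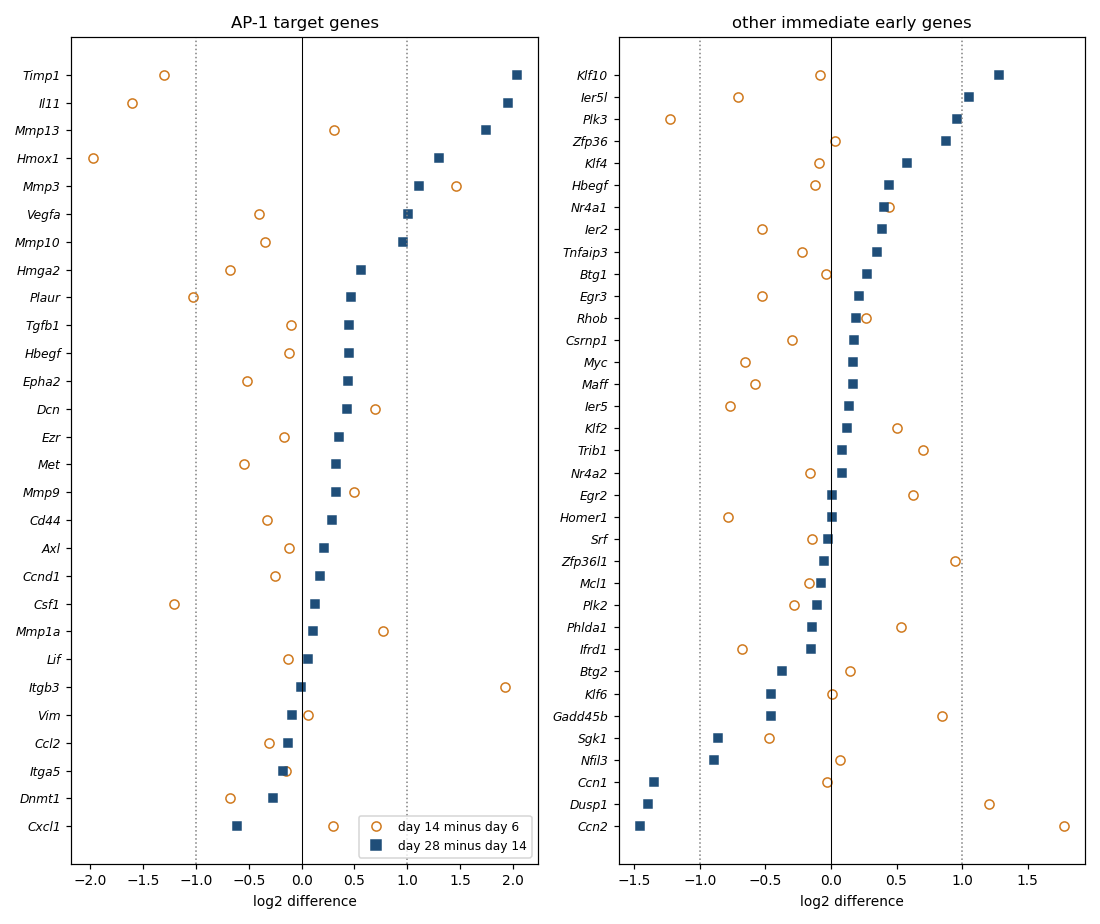
Log2 differences (horizontal axis) of day 14 minus day 6 (open circles) and day 28 minus day 14 (filled squares) for AP-1 target genes and other immediate early genes above the background on at least 1 array. Genes are ordered by the second step and dotted lines mark 2-fold; Timp1, Il11 and Hmox1 lie left in the first step and right in the second, and Ccn2 and Dusp1 the reverse.

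The median of the melanocyte markers moved opposite to Fosl1 in both steps, though not every marker did. Of 12 detected markers, 8 were 2-fold higher in the first step and 1 lower, with a median of 1.78, where 5.5% of all genes were higher and 3.87% lower. From day 14 to day 28, 6 of 11 detected were 2-fold lower and 0 higher, with a median of -1.01, where 1.46% of all genes were lower. Over the whole interval 4 of 11 stayed 2-fold higher and 0 were lower, with a median of 0.81, while Fosl1 was below its day 6 level. The marker lower in the first step was Ednrb, at least 1.56-fold against the background. Oca2 counted as higher in the first step and lower in the second. It lay above the background only at day 14, at 22.73 against 22.64, so neither of its folds has a bound. Sox10 differed by 0.72 and 0.15 in the 2 steps, and Pax3 by 0.055 and 0.04. Mitf, the lineage transcription factor gene, read 23.67, 26.10 and 25.80, and the pigment enzyme gene Tyrp1 27.58, 29.67 and 27.47. Fibroblast markers had 2 of 7 higher and 0 lower in the first step (5.5% and 3.87% of all genes), and 1 of 6 higher and 2 lower in the second (2.18% and 1.46%). Macrophage markers had 1 of 6 higher and 1 lower in the first step, and 1 of 6 higher and 0 lower in the second. Cd68, a lysosomal membrane gene of that list, read 25.09, 23.98 and 25.99, with its lowest array at day 14 as for Fosl1. Lyz2, the lysozyme gene, read 24.57, 27.17 and 27.31. The single detected endothelial marker, the cadherin gene Cdh5, read 23.70, 25.85 and 27.93, an 18.7-fold difference over the whole interval. The keratinocyte marker Cdh1 was the 1 of 4 detected that was higher in the first step, and it was the 1 lower in the second. The means of the added poly-A controls rose from 23.47 to 23.69 and 23.91, and the 3′ minus 5′ difference of the Actb quality probe sets went from 0.58 to 0.76 and 0.75. The part of cell state, of other cells or of RNA quality in the differences of Fosl1, Fos and the target genes was not tested. Fewer cells with a transcript and less transcript per cell cannot be told apart in these bulk samples.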

How the data were processed

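The deposited table holds 1 log2 value for each of 45101 probe sets and each of 3 arrays. Per the labels, biotin-labelled cRNA was prepared from 100 ng of total RNA. The labels name no summarization method, and neither the log2 base nor the constant that puts the median at 22.91 is stated by the authors. The identical sorted columns show quantile normalization before deposit. The series text gives a number of 4 samples, and 3 were used here.

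Of the probe sets, 34958 carried 1 gene symbol, 932 several, and 9211 were unnamed here. Symbols were updated by gene identifier through a RefSeq table of GRCm38.p6. A gene was represented by its probe set of highest mean value. A gene was described where it exceeded the background on at least 1 of both arrays, and counted at 2-fold. On a dim array a fold was given as a bound against the background. Of 279 list entries, 257 were on the array. The members and lists were chosen with earlier results of these data known. All members were named; from each list and comparison the rule took up to 3 genes 2-fold apart in each direction, and for Fosl1 and Fos the 3 nearest patterns, plus Nras, reference genes and cell type markers. Other genes were named as context for a list or after their values were seen. Alternatives changed the array scaling, which probe set was used, the background percentile, dim values and the fold counted. Python 3.11.15, numpy 2.4.6 and pandas 2.3.3 were used, and the steps were tested on simulated data. The number of arrays limits the precision.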

Additional observations from a re-analysis of the deposited data

How the results depend on the processing

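Fosl1 stayed at least 2-fold lower in the first step and at least 2-fold higher in the second, and Fos at least 2-fold higher in the first, under all 7 alternatives. Most alternatives could not change these differences. Fos has 1 probe set, so only the array shifts moved its first step, to 1.25 and 1.53. The differences of Fosl1 moved only with those shifts and the mean of probe sets. They ran from -1.96 to -1.68 in the first step and from 1.18 to 1.29 in the second. A scaling to equal medians of 12 reference genes moved the median of all genes by 0.19 in the first step and 0.26 over the whole interval, and raised the share of higher among all calls from 58.7% to 80.8% and from 62.2% to 84.7%. It brought the members higher to 2 in the second step and 1 over the whole interval, both through Ier3, which passed 2-fold narrowly. In the second step the genes higher among all went from 254 to 302 of 11666. Over the whole interval the genes higher across the 5 pathway lists went from 6 to 13. Among all genes the count went from 764 to 1319 of 11564. A shift to equal hybridization controls lowered the share of higher among all calls to 47.3% in the first step. With the mean of probe sets, 6 pathway genes in place of 3 were lower over the whole interval, beside 433 of 10451 genes in place of 464 of 11564. Jund then gave -0.74 and -0.91 in the second step and over the whole interval, because its dim probe set entered, and Fosl2 gave -0.18 in the second step. At 1.5-fold, the members higher and lower were 2 and 1 in the second step (Fosl1 and Ier3 against Fos) and 2 and 1 over the whole interval (Fos and Ier3 against Fosl1). At that size, 11 pathway genes of 91 were higher and 16 lower in the first step, beside 13.5% and 14.2% of all genes. In the second step 13 and 7 of 91 were, beside 7.5% and 4.41%. Over the whole interval 18 and 12 of 92 were, beside 15.8% and 12.2%. A smaller size admits more genes. Of the remaining values, 112 counts and medians and 291 single differences and list medians stayed within 1.5 times or within the SD between probe sets. No paired analysis was possible because each day has 1 array. Signal over background limits Fosb, the second probe sets of Fosl2 and Jund, and the day 14 value of the second Fosl1 probe set.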

Other observations

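Genes with the canonical AP-1 element TGACTCA in the 250 bases before an annotated start were set beside all genes with a promoter entry. From day 14 to day 28, 23 of 383 such genes (6.01%) were at least 2-fold higher, beside 1.99% of 9478 genes with an entry, and 10 (2.61%) were lower, beside 1.34%. The median difference was 0.08 beside 0.04, so the typical gene with the element hardly differed. Under the 7 alternatives the share higher ran from 5.22% to 13.6%, the last at 1.5-fold, where all genes gave 7.34%. From day 6 to day 14 the shares were 6.63% higher and 4.51% lower, beside 5.13% and 3.78%. From day 6 to day 28 they were 9.14% and 3.49%, beside 6.13% and 3.74%.

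The genes with the element that were higher in the second step, named after their values were seen, included Il11, Mmp13 and Mmp3 of the AP-1 target list, the lysosomal membrane gene Cd68 (25.09, 23.98 and 25.99 in order of time), AA467197 (25.77, 25.85 and 27.94), the cornified envelope gene Sprr1a (24.66, 22.87 and 24.35) and Col6a1 (22.38, 23.85 and 25.81). Lower were the protease gene Prss23 (27.57, 28.21 and 26.23) and the peptidase gene Mme (26.92, 28.23 and 26.76), among others. Promoters with the element had a lower median GC content than all promoters, 49.2% against 52.4%. Genes with TATAAA, whose median GC was 43.2%, had 3.14% higher and 2.10% lower in the same step. Genes with the CArG box (median GC 49.2%) had 3 of 138 higher and 3 lower, 2.17% each. Genes with the variant TGACATCA (median GC 47.6%) had 8 of 188 higher (4.26%) and 3 lower (1.60%). The EGR motif gave 2.01% higher and 1.31% lower, and TGACGT 1.37% and 0.915%. Genes with the cyclic AMP element TGACGTCA had 0.702% higher and 1.40% lower. No test was made of these shares, the part of base composition was not tested, and a match of letters is no evidence of binding.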
